A study of Mus musculus with 12 samples.

Results

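The expression of 50 genes of the TGF-beta, BMP and activin pathways was examined in D2A1 and D2.OR, a pair of related lines from mouse mammary tumors, each grown in 2D and in 3D. The genes were chosen by name, as the ligands, latent TGF-beta binding proteins, antagonists, receptors, SMADs, SMAD regulators and ID genes of these pathways, and all 50 of the listed symbols matched 1 of the 52550 genes of the deposited tables. D2.OR cells are used as a model of dormancy. The paper describes both lines as proliferating on plastic, and only D2.OR cells as arrested in the Matrigel culture, where D2A1 cells expand. A line difference in 2D is therefore not read here as one of arrested against growing cells. In 3D, single cells were seeded on top of a layer of growth-factor-reduced Matrigel, a basement membrane extract, and RNA was taken after a week. Each of the 4 groups (D2A1 2D, D2A1 3D, D2.OR 2D and D2.OR 3D) held 3 libraries, 12 in all, and several wells were pooled for a library. The labels name no transgene, knockout or drug treatment for any group. The lines came from separate tumors of different mice and each is represented by 1 line, so a difference between them cannot be told apart from any other difference of those tumors. The methods give a standard medium with fetal bovine serum for routine 2D culture and, for 3D culture, a low-serum medium with Matrigel, horse serum, hydrocortisone, cholera toxin and insulin. For the seeding of the RNA-seq cells the methods refer to the section on routine culture, which holds the 2D medium but no Matrigel culture. In the dormancy assay the 2D cells received the low-serum medium on plastic. Where the media differed, the effect of the matrix and that of the medium cannot be told apart.

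TGF-beta, the activins and the BMPs are secreted dimers that bind pairs of type II and type I receptor kinases. The type I receptor phosphorylates a receptor SMAD (SMAD2 and SMAD3 for TGF-beta and activin, SMAD1, SMAD5 and SMAD9 for the BMPs), which joins SMAD4 and enters the nucleus to switch target genes on or off. SMAD6 and SMAD7, the ubiquitin ligases SMURF1 and SMURF2, and the repressors SKI, SKIL and TGIF1 hold the signal back, and many of these inhibitors are themselves targets of it. In mammary tumor cells TGF-beta is known for growth arrest and for mesenchymal traits, and the ID genes, which encode inhibitors of basic helix-loop-helix transcription factors, are classical direct targets of BMP.

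Library totals ranged from 47589611 to 73325069 expected counts. Levels are given as the authors' TPM, which are scaled for gene length and library size, in the order of replicates 1, 2 and 3. Fold changes, on a log2 scale with their standard error (SE), come from the counts, fitted over all 12 libraries and 16823 genes with edgeR, and a gene was called at a Benjamini-Hochberg adjusted p under 0.05. The replicate number is also the batch. The study describes its findings in general as repeated biologically, but the sample labels do not say how the replicates of these libraries were started, and the p-values measure the spread between them, which may be partly technical. In bulk RNA fewer cells with a transcript and less transcript per cell cannot be told apart. Cell-type markers were checked against the label of a mammary tumor cell. In D2A1, 2 of 8 epithelial markers reached a mean of 1 TPM, against 5 of 8 in D2.OR, and Epcam (0.02 to 0.17 TPM), Cdh1 (0.02 to 0.28) and Krt8 (0.78 to 2.31) were close to absent from D2A1. Krt18 was not, at 204 to 294 TPM in D2A1 2D and 92.7 to 218 in D2A1 3D, and it made up nearly all of the D2A1 epithelial sum. The summed level of the epithelial list was 205 to 297 TPM in D2A1 2D, 94.1 to 221 in D2A1 3D, 1160 to 1720 in D2.OR 2D and 423 to 877 in D2.OR 3D. That of 8 mesenchymal markers was 922 to 2670, 1210 to 3270, 4860 to 6520 and 3520 to 7420 TPM in the same order, with the highest D2A1 values in both libraries of batch 1. These sums thus differed between the lines, and the epithelial sum was lower in 3D than in 2D in both lines, in each batch. In D2A1 that fall was one of Krt18. The median log2 change from 2D to 3D of the 6 tested epithelial markers was 0.89 in D2A1 and -1.33 in D2.OR, so the list did not fall as a whole in both lines. The part of these markers in the results between lines and between cultures was not tested. The 5 endothelial markers summed to at most 0.63 TPM and the 6 immune markers to at most 32.2 TPM in any library.

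Of the 50 pathway genes, 46 passed the filter on low counts. The 4 that did not were Bmp4, Bmp7, Grem1 and Bmpr1b, each with at most 4 counts in any library. In 2D, 32 of the 46 tested genes differed between the lines, 26 higher in D2.OR and 6 lower, where 49.8% of all genes tested were called (25.4% higher and 24.4% lower). In 3D, 32 of 46 differed, 27 higher and 5 lower, where 53.8% of all genes were called (27.7% higher and 26.1% lower). The median log2 fold change of the 46 genes was 0.58 in 2D and 0.68 in 3D, against -0.003 and 0.001 for all genes tested. Scaling by library totals alone moved the median of all genes in 2D to -0.167 and that of the pathway genes to 0.41, with 22 higher and 7 lower, and the share of all called genes that were higher in D2.OR went from 51% to 38.6%. The number of pathway genes called in 2D was 19 without replicate 2 and 21 without replicate 3, where the share of all genes called was 24.9% and 31.8%.

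**Figure D1:**
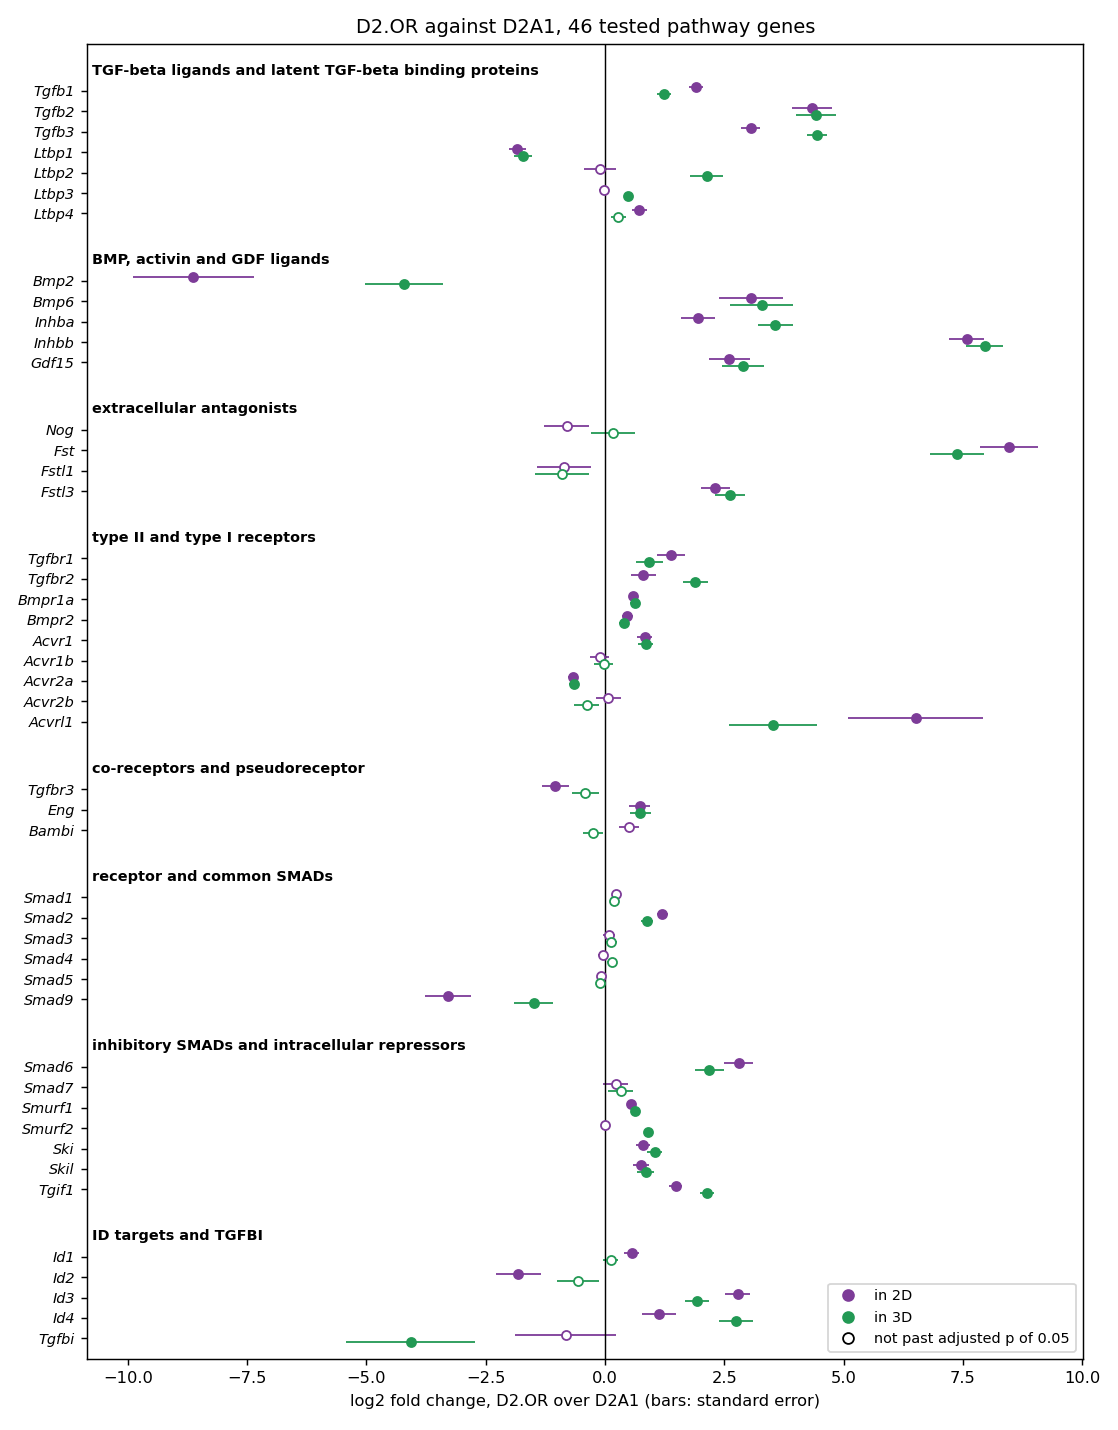
Log2 fold change of each of the 46 tested pathway genes in D2.OR over D2A1, with its standard error, in 2D (purple) and in 3D (green). Genes are grouped by role, filled points passed an adjusted p of 0.05, and most filled points lie to the right of 0 (26 of 32 in 2D and 27 of 32 in 3D).

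The 3 TGF-beta genes were all higher in D2.OR. Tgfb3 (ENSMUSG00000021253.7, GRCm38 chr12:86056745-86079041, minus strand) stood at 23.2, 24.9 and 24.2 TPM in D2A1 2D, 17.3, 11.99 and 10.85 in D2A1 3D, 173, 214 and 162 in D2.OR 2D, and 427, 274 and 204 in D2.OR 3D. The lines did not overlap in either culture, and the log2 fold change was 3.05 (SE 0.20, adjusted p = 5.22e-06) in 2D and 4.44 (SE 0.21, adjusted p = 8.42e-07) in 3D. Tgfb2 stood at 4.14, 1.67 and 1.55 TPM in D2A1 2D, 5.51, 1.13 and 1.05 in D2A1 3D, 37.6, 36.3 and 34.2 in D2.OR 2D, and 53.1, 39.0 and 27.3 in D2.OR 3D. Replicate 1 was the highest Tgfb2 library in both D2A1 groups and still lay far below every D2.OR library. The Tgfb2 difference was 4.33 (SE 0.42, adjusted p = 5.11e-05) in 2D and 4.42 (SE 0.42, adjusted p = 4.41e-05) in 3D, and the latter was 5.10 without replicate 1 and 5.06 without D2A1 3D replicate 1. Tgfb1, the most widely studied of the ligands, was at 24.8 ± 4.91 TPM (SD, n = 3) in D2A1 2D and differed by 1.90 (SE 0.15, adjusted p = 1.83e-05) in 2D and 1.23 (SE 0.15, adjusted p = 0.000178) in 3D. Per length, Tgfb3 was thus the most abundant of the 3 ligands in D2.OR, while in D2A1 the ranges of Tgfb1 and Tgfb3 overlapped in 2D (19.2 to 28.1 against 23.2 to 24.9 TPM).

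The latent TGF-beta binding proteins, which apart from that of Ltbp2 tether the inactive ligand to the matrix, did not move as a block. Ltbp1 was lower in D2.OR, with 52.5 ± 21.9 TPM in D2A1 2D against 13.6 ± 5.36 in D2.OR 2D (SD, n = 3 each, log2 fold change -1.84, adjusted p = 5.13e-05) and -1.72 in 3D (adjusted p = 6.77e-05). Ltbp4 was higher in 2D by 0.72 (adjusted p = 0.00516, and 0.0579 without replicate 2). In 3D Ltbp4 did not pass, and its ranges overlapped (18.8 to 23.5 TPM in D2A1 and 21.0 to 29.2 in D2.OR). Ltbp2 and Ltbp3 did not pass in 2D (-0.11 with SE 0.34 and -0.03 with SE 0.10, adjusted p = 0.808 and 0.856). They were higher in D2.OR in 3D, by 2.13 (SE 0.34, adjusted p = 0.000781) and 0.49 (SE 0.10, adjusted p = 0.0037). The Ltbp3 call was lost without replicate 3 and without the replicate block (adjusted p up to 0.141).

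Among the BMP, activin and GDF ligands, the 2 activin subunit genes had higher TPM in D2.OR than the other 5 of the 7 listed here. Inhbb, which encodes the beta B subunit of activin B (ENSMUSG00000037035.5, chr1:119415465-119422248, minus strand), was at 0.14, 0.28 and 0.1 TPM in D2A1 2D and 0.13, 0.05 and 0.06 in D2A1 3D, but at 44.5, 24.4 and 25.9 in D2.OR 2D and 21.2, 20.2 and 17.6 in D2.OR 3D. In counts this was 9 to 41 reads per D2A1 library against 2878 to 8072 per D2.OR library. The log2 fold change was 7.58 (SE 0.37, adjusted p = 9.55e-07) in 2D and 7.96 (SE 0.39, adjusted p = 9.5e-07) in 3D, the 2D value being 8.29 without replicate 2 and 8.21 without D2A1 2D replicate 2. Inhba, the beta A subunit gene, was at 21.1, 11.1 and 10.03 TPM in D2A1 2D, 9.56, 8.49 and 9.37 in D2A1 3D, 27.8, 55.5 and 60.8 in D2.OR 2D, and 95.4, 116 and 106 in D2.OR 3D. The 2 lines came closest in batch 1 of 2D, at 21.1 against 27.8 TPM. The Inhba difference was 1.95 in 2D (SE 0.36, adjusted p = 0.0018, 2.64 without replicate 1, and an adjusted p of 0.0568 without replicate 2) and 3.57 in 3D (SE 0.37, adjusted p = 6.77e-05). Gdf15, a stress-induced divergent member of the family, was higher by 2.6 in 2D (adjusted p = 0.0011, 3.25 without replicate 2) and 2.89 in 3D (adjusted p = 0.000553).

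The 4 BMP genes among the 50, Bmp2, Bmp4, Bmp6 and Bmp7, were at 1.32 TPM or less in every library. Bmp6 was higher in D2.OR by 3.06 in 2D and 3.28 in 3D (adjusted p = 0.0051 and 0.0029). Its 2D value was 4.28 without replicate 1, 4.60 without D2A1 2D replicate 1 and 2.44 without D2A1 2D replicate 2, and without replicate 3 the call was lost in both cultures (adjusted p = 0.0653 and 0.0528). Bmp2 had 27 to 59 counts per library in D2A1 2D and 0 counts in the 3 libraries of D2.OR 2D, which against a floor of 3 counts per library makes it at least 14.3-fold lower in D2.OR (adjusted p = 0.00128). In 3D it had 33 to 44 counts in D2A1, and 6, 0 and 0 in D2.OR (adjusted p = 0.00402). At this depth Bmp4, Bmp7 and Grem1, which encodes the BMP antagonist gremlin, were listed at 0 to 0.03 TPM. Bmp8a, from the list of other ligands and named after its values were seen, was higher, at 5.08, 0.92 and 0.84 TPM in D2.OR 2D and 29.4, 3.98 and 1.77 in D2.OR 3D, against at most 0.27 in D2A1.

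**Figure D2:**
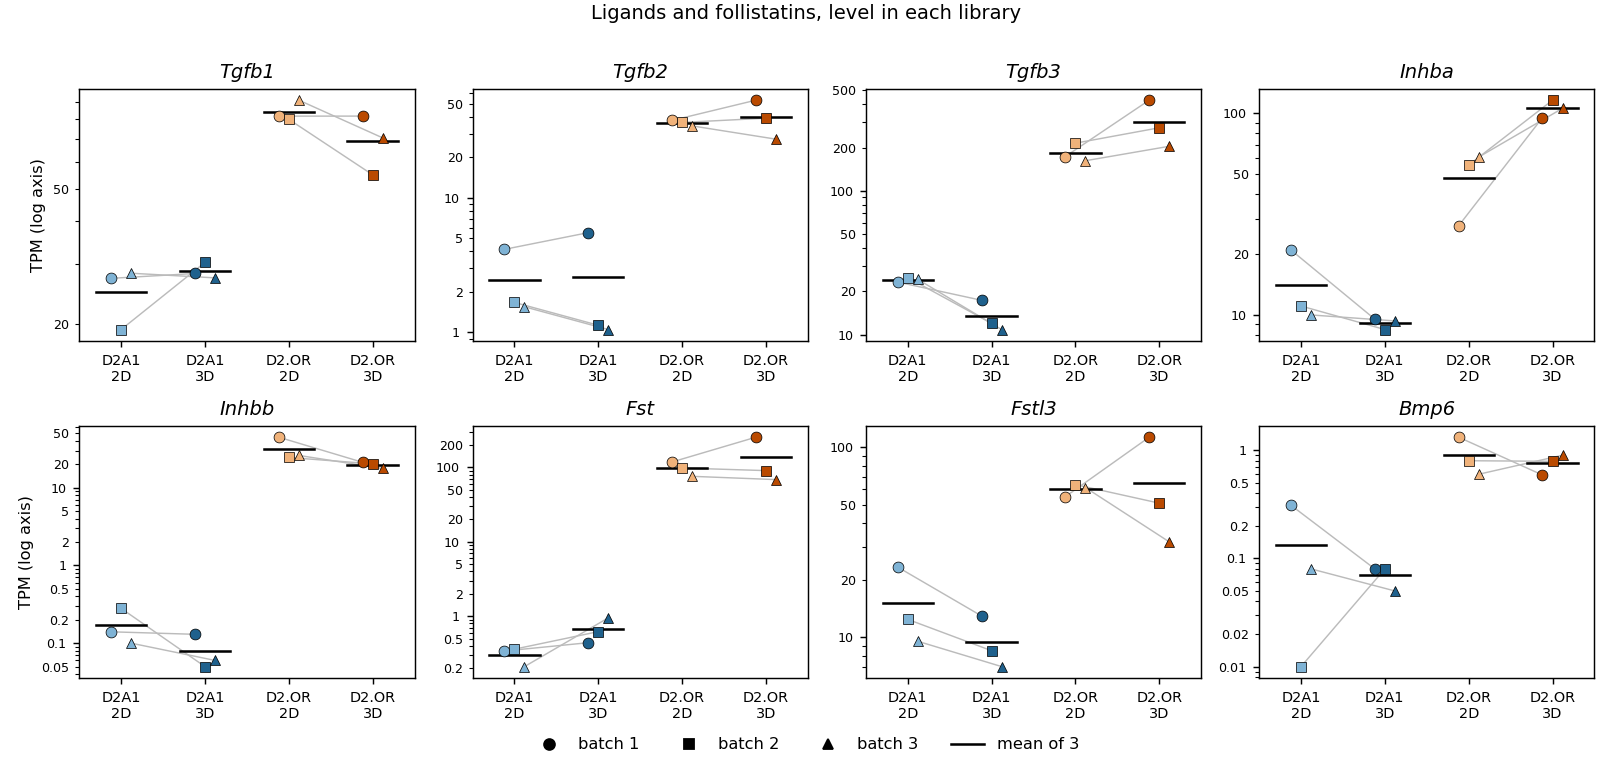
TPM of the TGF-beta ligands, the activin subunit genes, Fst, Fstl3 and Bmp6 in each of the 12 libraries, on log axes that differ between panels. Symbols mark the batch, grey lines join the 2D and 3D library of a batch, and black bars are the means of 3 libraries. In each of these 8 genes every D2.OR library lies above every D2A1 library of the same culture. Of all 50 pathway genes, 21 lay above and 7 below in this way in 2D, and 29 above and 5 below in 3D. The share of all genes was not counted.

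The activin-binding follistatins were also higher in D2.OR. Fst, which binds activin almost irreversibly (ENSMUSG00000021765.8, chr13:114452262-114458949, minus strand), was at 0.34, 0.36 and 0.21 TPM in D2A1 2D, 0.44, 0.62 and 0.95 in D2A1 3D, 118.5, 98.4 and 76 in D2.OR 2D, and 255, 90.7 and 68.7 in D2.OR 3D. It had the largest fold change of the tested pathway genes that were above the floor in both lines in 2D, 8.46 (SE 0.61, adjusted p = 9.26e-06). In 3D the Fst difference was 7.38 (SE 0.57, adjusted p = 1.23e-05), 6.49 without replicate 1, 6.73 without D2A1 3D replicate 1, 8.17 without replicate 3 and 8.06 without D2A1 3D replicate 3. Fstl3 was at 23.5, 12.5 and 9.55 TPM in D2A1 2D, 13.0, 8.52 and 7.03 in D2A1 3D, 55.0, 63.7 and 61.4 in D2.OR 2D, and 113, 50.8 and 31.8 in D2.OR 3D. Its groups were apart in both cultures, with log2 fold changes of 2.31 (SE 0.30, adjusted p = 0.000286) and 2.62 (SE 0.31, adjusted p = 0.000134). In the GENCODE annotation 47.3% of the exon bases of Fstl3 are shared with Prss57 on the opposite strand, and since the strand setting of the counting is not stated, reads of the 2 genes there cannot be told apart. Nog, a BMP antagonist, and Fstl1 did not pass in either culture, with Nog at 0.27 to 2.30 TPM and Fstl1 at 0.08 to 0.43 TPM over all libraries.

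The receptors pair as type I and type II kinases. Of 9 tested type I and type II receptor genes, 6 were higher and 1 was lower in D2.OR in each culture, where 49.8% and 53.8% of all genes were called in 2D and 3D. Bmpr1a, a type I BMP receptor, had the smallest p of its group in 2D, with 49.2, 52.8 and 44.2 TPM in D2A1 2D, 43.8, 42.3 and 38.2 in D2A1 3D, 65.7, 69.3 and 64.8 in D2.OR 2D, and 69.1, 59.2 and 59.4 in D2.OR 3D. The lines did not overlap, and the log2 fold change was 0.59 (SE 0.09, adjusted p = 0.000492) in 2D and 0.62 (SE 0.09, adjusted p = 0.00034) in 3D. Tgfbr2, the type II receptor that binds TGF-beta first, was at 123, 56.9 and 62.7 TPM in D2A1 2D, 60.2, 23.7 and 18.7 in D2A1 3D, 115, 136 and 99.6 in D2.OR 2D, and 168, 103 and 85.6 in D2.OR 3D. Its 2D libraries overlapped because replicate 1 of D2A1 lay among the D2.OR values. The Tgfbr2 difference was 0.80 in 2D (SE 0.26, adjusted p = 0.028) and 1.89 in 3D (SE 0.26, adjusted p = 0.000349). The 2D call did not hold without the replicate block (adjusted p = 0.228), with limma, with library totals, with the compared groups only, without replicate 2 or 3 (up to 0.298), nor without any 1 of the replicates 2 and 3 of the 2D groups.

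Tgfbr1, Bmpr2 and Acvr1 were higher in both cultures, by 1.39, 0.47 and 0.83 in 2D and by 0.93, 0.40 and 0.85 in 3D (adjusted p from 0.00127 to 0.0214). Over the alternatives their highest adjusted p in 2D were 0.0719, 0.095 and 0.0548, all reached without replicate 2. Bmpr2 in 2D also did not pass with limma on log2(TPM + 1). In 3D, Tgfbr1 did not pass without the replicate block (0.125), replicate 2 or 3, D2A1 3D replicate 2 or 3, or D2.OR 3D replicate 1 or 3 (up to 0.176), nor Bmpr2 without replicate 2 or 3 or D2A1 3D replicate 1 (up to 0.0758). Acvr2a, an activin type II receptor, was the 1 receptor that was lower, by -0.67 in 2D and -0.65 in 3D (adjusted p = 0.00131 and 0.00133). Acvr1b and Acvr2b did not pass in either culture. Acvrl1, known from endothelium, had 0 counts in all 3 D2A1 2D libraries and 5, 9 and 17 in D2.OR 2D, at least 3.62-fold higher against the floor (adjusted p = 0.00754, and 0.0609 without replicate 3), and at least 4.23-fold higher in 3D (adjusted p = 0.0155, and up to 0.336 over the alternatives, the call being lost with limma and without replicate 2 or 3, D2A1 3D replicate 2 or 3, or D2.OR 3D replicate 1 or 2).

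Of the 3 co-receptor genes, Tgfbr3, which encodes betaglycan and presents TGF-beta 2 and inhibin, was lower in D2.OR in 2D. It was at 25.8, 41.6 and 41.0 TPM in D2A1 2D, 15.5, 15.1 and 10.2 in D2A1 3D, 18.5, 18.9 and 14.0 in D2.OR 2D, and 16.7, 9.14 and 6.32 in D2.OR 3D. Only the 2D groups were apart between the lines, and the difference was -1.04 in 2D (SE 0.29, adjusted p = 0.0149, and up to 0.134 without replicate 2 or 3, without D2A1 2D replicate 2 or 3, or without D2.OR 2D replicate 3) and -0.41 in 3D (SE 0.29, adjusted p = 0.246). Eng, which encodes endoglin, was at 0.92 to 2.99 TPM and higher in D2.OR by 0.73 in 2D and 0.74 in 3D (adjusted p = 0.0217 and 0.0195), with adjusted p up to 0.141 and 0.126 over the alternatives. The Eng call was lost without the replicate block (adjusted p = 0.0718 and 0.061), with the compared groups only and without replicate 3 in both cultures. It was also lost with limma and with library totals in 2D, without replicate 2 and any 1 of D2A1 2D replicates 2 and 3 and D2.OR 2D replicates 1 and 2 in 2D, and without replicate 1, D2A1 3D replicate 1 or D2.OR 3D replicate 1 or 3 in 3D.

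The receptor SMADs and SMAD4 carry the signal to the nucleus. Of the 6 genes, Smad2 and Smad9 differed between the lines, and Smad1, Smad3, Smad4 and Smad5 did not pass in either culture, with log2 fold changes between -0.11 and 0.22. Smad2 was at 43.9, 33.0 and 32.7 TPM in D2A1 2D, 41.1, 38.0 and 38.6 in D2A1 3D, 80.7, 65.6 and 75.9 in D2.OR 2D, and 91.8, 65.3 and 62.4 in D2.OR 3D. Every D2.OR library was above every D2A1 library, and the difference was 1.20 (SE 0.12, adjusted p = 5.59e-05) in 2D and 0.88 (SE 0.12, adjusted p = 0.000298) in 3D. Smad9, the least abundant of the receptor SMADs and one that is also a BMP target (ENSMUSG00000027796.2, chr3:54755582-54801257, plus strand), was at 0.96, 0.48 and 0.79 TPM in D2A1 2D, 2.28, 1.21 and 1.42 in D2A1 3D, 0.14, 0.05 and 0.02 in D2.OR 2D, and 0.51, 0.59 and 0.55 in D2.OR 3D. It was lower in D2.OR by -3.29 in 2D (SE 0.48, adjusted p = 5e-04, -3.97 without replicate 1 and -4.07 without D2.OR 2D replicate 1) and by -1.49 in 3D (SE 0.41, adjusted p = 0.0127, and 0.0721 without replicate 2). The lowest group rested on 32, 9 and 3 counts.

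Among the inhibitors inside the cell, 5 of 7 were higher in D2.OR in 2D and 6 of 7 in 3D, where 25.4% and 27.7% of all genes were higher. Smad6, which blocks BMP receptor signaling, was at 2.82, 1.5 and 1.92 TPM in D2A1 2D, 2.90, 3.96 and 4.63 in D2A1 3D, 17.02, 9.28 and 13.5 in D2.OR 2D, and 24.6, 17.8 and 13.6 in D2.OR 3D. The lines were apart in both cultures, by 2.80 (SE 0.31, adjusted p = 0.00011) and 2.19 (SE 0.30, adjusted p = 0.000339). Tgif1, a nuclear corepressor of SMAD2 and SMAD3, was at 123, 182 and 162 TPM in D2A1 2D, 104, 96.7 and 86.6 in D2A1 3D, 330.5, 345 and 347 in D2.OR 2D, and 402, 317 and 395 in D2.OR 3D. It differed by 1.48 (SE 0.14, adjusted p = 4.42e-05) and 2.14 (SE 0.14, adjusted p = 5.32e-06). Smurf1 (0.55 and 0.62), Ski (0.80 and 1.04) and Skil (0.76 and 0.85) were higher in both cultures, with adjusted p from 0.000307 to 0.00535, though Ski in 2D did not pass without replicate 2 (0.066) nor Skil without replicate 2 or 3 (up to 0.0758). Smad7, the inhibitory SMAD of the TGF-beta branch, was at 15.5 to 42.7 TPM and did not pass, at 0.22 in 2D and 0.33 in 3D (adjusted p = 0.511 and 0.294).

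Tgfbi, which encodes a TGF-beta-induced matrix protein, was nearly silent, with 0 to 36 counts in any library. It did not pass in 2D (adjusted p = 0.547), and in 3D its D2.OR level was lower, at least 6.43-fold (adjusted p = 0.0295, and up to 0.107 over the alternatives). That call rested on few counts and was lost with limma on log2(TPM + 1), without replicate 3, without any 1 D2A1 3D library and without D2.OR 3D replicate 1 or 2.

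The other genes of the pathway were taken from 6 lists with 93 symbols. Of 16 TGF-beta and activin target genes, all tested, 12 were higher in D2.OR and none lower in 2D, and 12 were higher in 3D (edgeR, the background of called genes being the 49.8% and 53.8% above, and 12 and 13 of the 16 having an unadjusted p under 0.05). Their median log2 fold change was 1.33 in 2D and 1.65 in 3D. Ccdc80, at 0.69 to 2.18 TPM in D2A1 and 33.8 to 95.7 in D2.OR, and Snai2, which encodes the repressor Slug, at 4.40 to 18.4 and 29.0 to 51.8, had the smallest p in 2D (log2 fold changes 6.23 and 1.70, adjusted p = 1.53e-06 and 8.24e-05). Of 4 tested genes on the list of BMP targets, 2 were higher and 1 was lower in each culture. In 2D Hey1 was higher in D2.OR (7.50, adjusted p = 4.48e-06) and Dlx5, with 0 TPM in the D2.OR 2D libraries, at least 91.9-fold lower.

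For the other lists, 49.8% of all genes in 2D and 53.8% in 3D are again the background. Of 9 other ligand genes tested, 6 were higher and 1 lower in 2D, and 4 were higher and 0 lower in 3D (44.4% called, with 4 at an unadjusted p under 0.05 in edgeR). They were led in 2D by Lefty1 (6.52, adjusted p = 3.97e-06) and Bmp1 (2.35, adjusted p = 2.46e-05), whose product is a metalloprotease rather than a BMP. Of 6 other receptors and co-receptors, 2 were higher and 1 lower in 2D, and 3 were higher and 1 lower in 3D. Nrp1, the neuropilin that also binds TGF-beta, was at 27.8 to 82.0 TPM in D2A1 2D and 234 to 330.0 TPM in D2.OR 2D (2.73, adjusted p = 0.000666). Amhr2, the receptor of anti-Mullerian hormone, was at least 13.2-fold higher. Of 14 other extracellular modulators, 8 were higher and 3 lower in 2D, and 7 were higher and 3 lower in 3D, with Fbn1 (4.0, adjusted p = 3.04e-05) and Chrd, which encodes the BMP antagonist chordin (3.16, adjusted p = 3.1e-05), in the lead in 2D. Of 16 other intracellular regulators, 5 were higher and 5 lower in 2D, and 4 were higher and 3 lower in 3D (43.8% called). In 2D Tgif2 was lower by -1.52 (adjusted p = 4.56e-05) where its paralog Tgif1 was higher, and Pmepa1, a TGF-beta-induced inhibitor, was higher by 3.30 (adjusted p = 9.74e-05).

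Fewer pathway genes were called between cultures than between lines. In D2A1, 7 of 46 were called, where 3.48% of all genes tested were called (1.37% higher and 2.12% lower). Those that rose were Id1, Id2, Id3 and Bambi, and those that fell were Ltbp3, Tgfbr2 and Tgfbr3. In D2.OR, 5 of 46 were called, where 1.62% of all genes were called (0.838% higher and 0.785% lower), and all 5 rose, namely Id2, Id4, Smad9, Ltbp2 and Smurf2. The median log2 change over the 46 genes was -0.08 in D2A1 and 0.01 in D2.OR, against 0.004 and 0.002 for all genes. These counts depended on single libraries. In D2A1 none of the 46 passed without D2A1 2D replicate 2 or 3 or without D2A1 3D replicate 2 or 3, where at most 0.121% of all genes passed. In these fits 14 to 18 of the 46 had an unadjusted p under 0.05, as did 2984 to 3522 of 17259 to 17351 genes tested. Without replicate 2 or 3 of either D2.OR group 2 passed (0.427% to 0.609% of all genes). Without replicate 1 of D2A1 2D and of D2A1 3D 16 and 12 passed, where 30.3% and 12.8% of all genes passed. In D2.OR none passed without replicate 2 or 3 of either D2.OR group, where at most 0.18% of all genes passed. There 12 to 14 of the 46 had an unadjusted p under 0.05, as did 1862 to 2213 of 17231 to 17350 genes tested. Without D2A1 3D replicate 2, 3 passed (0.596% of all genes), and without D2A1 2D replicate 1, 9 passed (3.67% of all genes). With batch 1 left out as a whole, 21 and 13 passed, while the share of all genes called rose to 36.3% in D2A1 and 8.38% in D2.OR. Without batch 2 or batch 3 none passed in either line, where at most 0.00589% of all genes passed. In those fits 10 to 13 of the 46 had an unadjusted p under 0.05, as did 1221 to 1669 of 16980 to 17005 genes tested. Without the replicate block, 1 of 46 passed in D2A1 (Id3) and 2 of 46 in D2.OR (Id2 and Smurf2), with 0.309% and 0.119% of all genes.

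**Figure D3:**
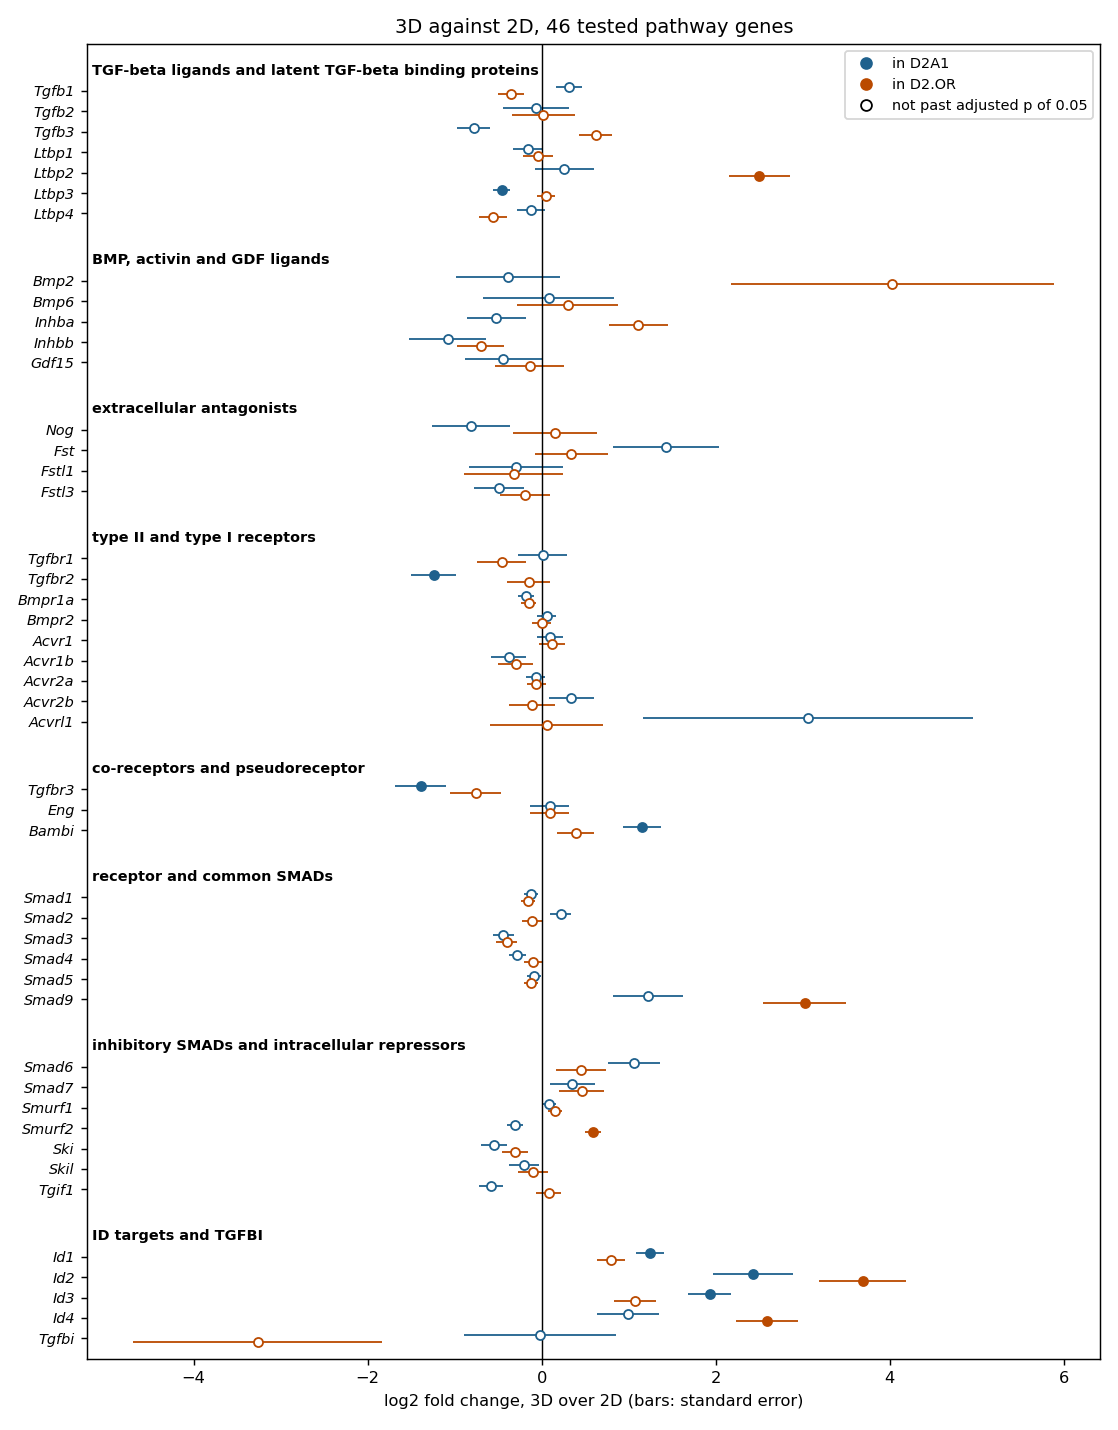
Log2 fold change of each of the 46 tested pathway genes in 3D over 2D, with its standard error, in D2A1 (blue) and in D2.OR (orange). Filled points passed an adjusted p of 0.05 (7 in D2A1, 5 in D2.OR), and the 4 ID genes lie to the right of 0 in both lines.

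The 4 ID genes were higher in 3D in each batch of both lines, and in each line their 2D and 3D libraries did not overlap. Of all 50 pathway genes, 8 lay wholly above and 10 wholly below their 2D range in D2A1, and 9 above and 2 below in D2.OR. The share of all genes with either pattern was not counted. Id2 (ENSMUSG00000020644.9), a partner of E proteins that is prominent in mammary epithelium, was at 14.98, 11.95 and 14.4 TPM in D2A1 2D, 59.5, 57.3 and 97.4 in D2A1 3D, 3.87, 3.44 and 3.02 in D2.OR 2D, and 16.2, 54.4 and 84.5 in D2.OR 3D. The rise was 2.43 (SE 0.46, adjusted p = 0.0381) in D2A1 and 3.69 (SE 0.50, adjusted p = 0.0138) in D2.OR, where replicate 1 rose least and the value was 4.35 without replicate 1 and 3.1 without replicate 3. Between the lines, Id2 was lower in D2.OR in 2D by -1.82 (SE 0.47, adjusted p = 0.0105, and up to 0.091 without replicate 2 or 3), while the 3D difference of -0.56 did not pass (SE 0.44, adjusted p = 0.301).

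Id4 (ENSMUSG00000021379.2) was at 1.29, 1.03 and 0.73 TPM in D2A1 2D, 3.66, 1.38 and 1.35 in D2A1 3D, 5.72, 1.33 and 1.09 in D2.OR 2D, and 40.9, 8.08 and 6.08 in D2.OR 3D. Replicate 1 was the highest in all 4 groups, and the step from 2D to 3D was close to even over the batches of D2.OR, at 2.70, 2.54 and 2.43 on the log2 scale. The change was 2.59 (SE 0.36, adjusted p = 0.0147) in D2.OR and 0.99 (SE 0.36, adjusted p = 0.104) in D2A1. The line difference was 1.13 in 2D (SE 0.36, adjusted p = 0.0281, and 0.145 without the replicate block) and 2.74 in 3D (SE 0.36, adjusted p = 0.000276). The 2D call of Id4 was also lost with limma (adjusted p up to 0.157), with library totals, with the compared groups only, without replicate 2 or 3 and without replicate 1 of either 2D group.

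Id1 and Id3 were the most abundant of the 4. Id1 (ENSMUSG00000042745.9, chr2:152736251-152737410, plus strand) was at 46.1, 85.0 and 93.5 TPM in D2A1 2D, 108, 178 and 197 in D2A1 3D, 87.4, 84.8 and 116 in D2.OR 2D, and 141, 171 and 219 in D2.OR 3D. Its rise was 1.24 (SE 0.16, adjusted p = 0.0184) in D2A1, and the value in D2.OR was 0.80 (SE 0.16, adjusted p = 0.0502), just outside the threshold. Id3 (ENSMUSG00000007872.3) was at 69.3, 35.4 and 51.2 TPM in D2A1 2D, 161, 183 and 200.2 in D2A1 3D, 330.3, 298 and 332 in D2.OR 2D, and 549, 713 and 854 in D2.OR 3D. It rose by 1.93 (SE 0.25, adjusted p = 0.0184) in D2A1, and the change of 1.07 in D2.OR did not pass (SE 0.24, adjusted p = 0.0675). Id3 also separated the lines, by 2.78 (SE 0.26, adjusted p = 3.78e-05) in 2D and 1.92 (SE 0.25, adjusted p = 0.000233) in 3D, so that its D2A1 3D libraries lay below its D2.OR 2D libraries. The Id1 line difference was 0.56 in 2D (SE 0.16, adjusted p = 0.0188, and 0.209 without the replicate block) and 0.12 in 3D (SE 0.16, adjusted p = 0.55). The 2D call was also lost with limma, with library totals, with the compared groups only, without replicate 1 or 3 and without replicate 1 of either 2D group.

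**Figure D4:**
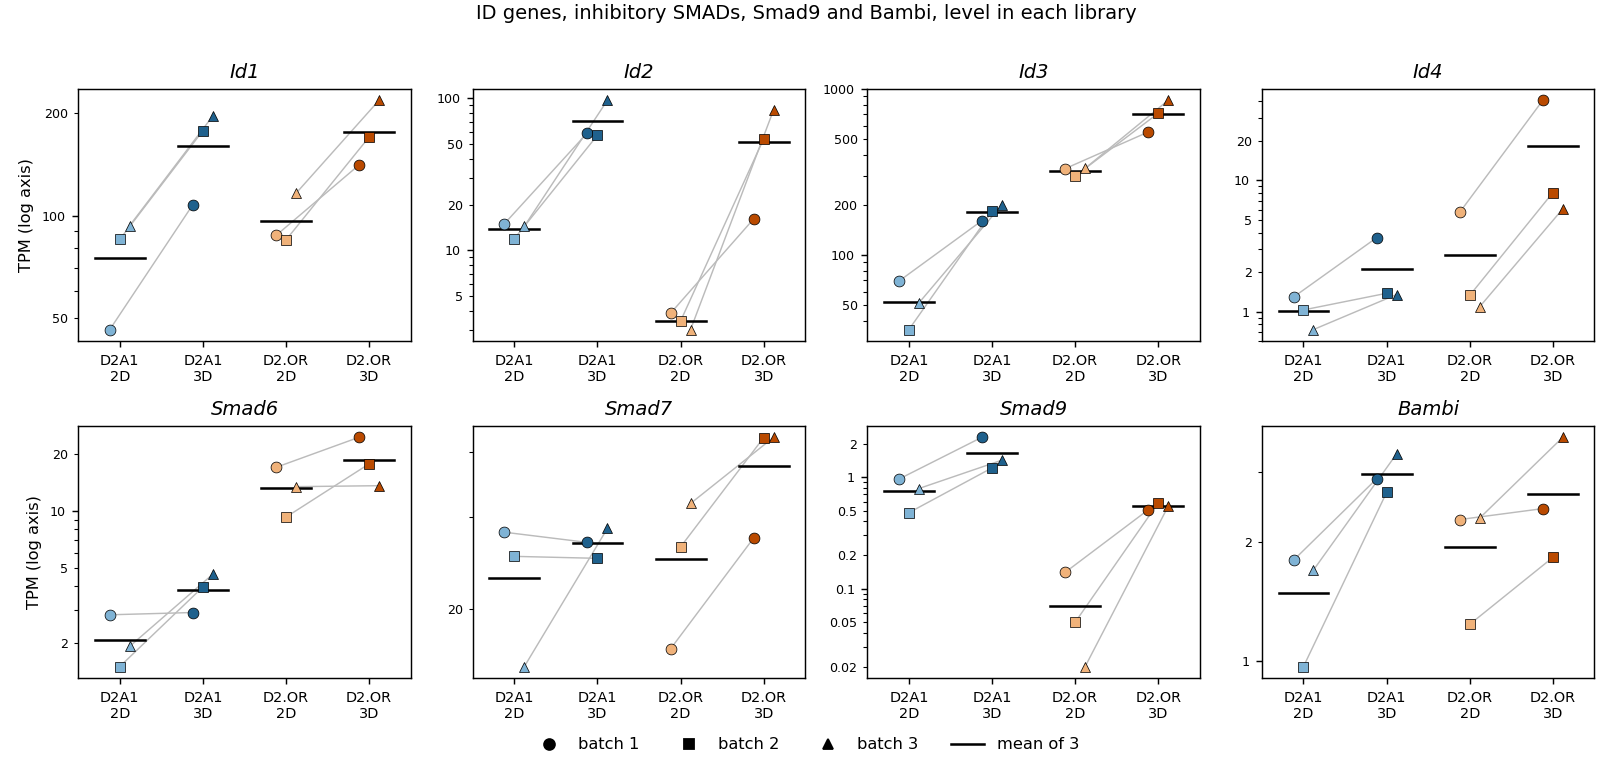
TPM of the ID genes, Smad6, Smad7, Smad9 and Bambi in each of the 12 libraries, on log axes that differ between panels. Symbols mark the batch, grey lines join the 2D and 3D library of a batch, black bars are the means of 3 libraries, and for Id1, Id2, Id3, Id4 and Smad9 each grey line climbs from 2D to 3D in both lines.

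The promoters of Id2, Id3, Id4 and Smad9 are shown as those of ID genes and of a BMP SMAD that rose in 3D in at least 1 line, and that of Id1 was not searched. Each runs from 250 bases before to 50 bases after the RefSeq start, 5′ to 3′ on the strand of the gene (GRCm38.p6), and 37 of the 50 genes had a promoter that was searched, 13 of them with GGCGCC. Capitals mark GGCGCC, a palindrome that purified SMAD1 and SMAD5 are known to bind. Both strands were also searched for CAGACA, which holds the core SMAD3 and SMAD4 recognize, and for GTCTAGAC, the palindromic SMAD box.
Id2 (chr12:25096043-25096342, minus strand): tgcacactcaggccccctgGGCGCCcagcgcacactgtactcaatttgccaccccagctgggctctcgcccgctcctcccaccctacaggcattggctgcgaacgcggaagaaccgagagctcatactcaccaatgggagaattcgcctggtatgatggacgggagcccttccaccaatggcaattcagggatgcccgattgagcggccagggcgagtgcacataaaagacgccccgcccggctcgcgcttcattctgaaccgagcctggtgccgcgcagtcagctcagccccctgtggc
Id3 (chr4:136143572-136143871, plus strand): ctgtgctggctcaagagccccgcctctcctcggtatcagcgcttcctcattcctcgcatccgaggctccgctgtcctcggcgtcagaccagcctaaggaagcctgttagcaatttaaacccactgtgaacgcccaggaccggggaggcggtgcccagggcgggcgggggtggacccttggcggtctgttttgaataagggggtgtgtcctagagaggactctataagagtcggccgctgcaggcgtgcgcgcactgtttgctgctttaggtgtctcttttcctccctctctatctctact
Id4 (chr13:48260866-48261165, plus strand): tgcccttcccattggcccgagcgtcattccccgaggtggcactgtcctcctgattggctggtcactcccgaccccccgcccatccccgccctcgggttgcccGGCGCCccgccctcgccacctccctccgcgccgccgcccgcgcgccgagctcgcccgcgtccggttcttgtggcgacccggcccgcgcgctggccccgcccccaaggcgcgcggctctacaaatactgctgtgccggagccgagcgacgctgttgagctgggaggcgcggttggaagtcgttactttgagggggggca
Smad9 (chr3:54755332-54755631, plus strand): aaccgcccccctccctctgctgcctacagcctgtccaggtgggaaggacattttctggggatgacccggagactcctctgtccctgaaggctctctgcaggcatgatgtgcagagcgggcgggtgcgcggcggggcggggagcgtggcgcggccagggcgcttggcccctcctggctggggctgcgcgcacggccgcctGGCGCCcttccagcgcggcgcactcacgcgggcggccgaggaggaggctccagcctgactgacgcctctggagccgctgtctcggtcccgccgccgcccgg
GGCGCC began at position -231 from the start in Id2, -148 in Id4 and -51 in Smad9, and the Id3 window did not hold it. Of 32851 promoters of the same length, 11.9% held GGCGCC, 21% held CAGACA and 0.213% held GTCTAGAC, and neither of the latter was in these 4 windows. Of the other genes that rose in D2.OR in 3D, the Smurf2 window held GGCGCC 2 times and CAGACA 1 time, and the Ltbp2 window held none of the 3 motifs. GC content was 63.3% for Id2, 60% for Id3, 73.3% for Id4 and 73.7% for Smad9, against a median of 52.7% over all promoters.

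Of the other BMP-linked genes, Smad9 and Bambi were called in 1 line each. Smad9 rose by 3.02 in D2.OR (SE 0.48, adjusted p = 0.0246, 3.95 without replicate 1 and 3.76 without D2.OR 2D replicate 1), from the levels given above, with every 3D library above every 2D library. In D2A1 the Smad9 groups did not overlap either, but the change of 1.22 did not pass (SE 0.40, adjusted p = 0.0846). Bambi, a pseudoreceptor that dampens TGF-beta and BMP signals, was at 1.80, 0.97 and 1.70 TPM in D2A1 2D, 2.89, 2.67 and 3.34 in D2A1 3D, 2.28, 1.24 and 2.30 in D2.OR 2D, and 2.43, 1.83 and 3.68 in D2.OR 3D. It rose by 1.15 in D2A1 (SE 0.22, adjusted p = 0.0367), while in D2.OR the groups overlapped and the change was 0.39 (SE 0.21, adjusted p = 0.371). Between the lines Bambi overlapped in both cultures and did not pass, at 0.51 in 2D (SE 0.21, adjusted p = 0.0753) and -0.25 in 3D (SE 0.21, adjusted p = 0.343). Smad6 was higher in 3D by 1.06 in D2A1 (adjusted p = 0.0653) and 0.45 in D2.OR (adjusted p = 0.451), neither of which passed. Atoh8, a gene on the list of BMP targets chosen here after its values were seen, was at 1.61 to 1.73 TPM in D2A1 2D and 3.85 to 4.13 in D2A1 3D, and at 2.19 to 3.33 in D2.OR 2D and 7.18 to 8.99 in D2.OR 3D. It rose in both lines, by 1.37 (SE 0.17, adjusted p = 0.0144) and 1.61 (SE 0.16, adjusted p = 0.00623). Of the 4 tested BMP targets, 2 rose in D2A1, the other being Hey1 (2.84, adjusted p = 0.0282), and 1 rose in D2.OR, where 3.48% and 1.62% of all genes were called.

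On the TGF-beta side, transcripts of a receptor and a co-receptor fell in D2A1 in 3D. Tgfbr2 fell by 1.24 on the log2 scale (SE 0.26, adjusted p = 0.0442), in each batch, though D2A1 3D replicate 1 (60.2 TPM) lay within the 2D range. Tgfbr3 fell by 1.39 (SE 0.29, adjusted p = 0.0446), and its 3D libraries were all below the 2D libraries. In D2.OR the values were -0.15 and -0.76 and did not pass (adjusted p = 0.797 and 0.211). Ltbp3 was at 99.9, 178 and 163 TPM in D2A1 2D, 79.9, 116 and 96.7 in D2A1 3D, 95.1, 148 and 149 in D2.OR 2D, and 122, 149.75 and 143 in D2.OR 3D. It fell by 0.46 in D2A1 (SE 0.10, adjusted p = 0.0489), with overlapping groups, against 0.05 in D2.OR (adjusted p = 0.831). Ltbp2, which unlike the other family members does not bind latent TGF-beta, was at 0.95, 1.74 and 0.63 TPM in D2A1 2D, 0.88, 0.90 and 0.98 in D2A1 3D, 0.31, 1.61 and 1.18 in D2.OR 2D, and 2.33, 8.30 and 4.13 in D2.OR 3D. Its groups overlapped in D2A1 and were apart in D2.OR, where it rose by 2.5 (SE 0.35, adjusted p = 0.0147).

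Inhba was higher in all 3 D2.OR 3D libraries than in D2.OR 2D, without passing (1.11, SE 0.34, adjusted p = 0.14), and the value in D2A1 was -0.52 (adjusted p = 0.324). None of the 16 listed TGF-beta and activin targets passed in D2.OR with edgeR, where 1.62% of all genes were called. Of the 16, 4 had an unadjusted p under 0.05, as did 2967 of all 16823 genes tested. In D2A1, where 3.48% of all genes were called, 2 of the 16 fell, Snai2 (-1.22, adjusted p = 0.0234) and Nedd9 (-1.63, adjusted p = 0.0358, named after its values were seen).

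Smurf2, the ubiquitin ligase that removes SMADs and TGF-beta receptors, was at 27.3, 31.9 and 28.8 TPM in D2A1 2D, 23.6, 21.4 and 21.6 in D2A1 3D, 25.6, 27.2 and 28.4 in D2.OR 2D, and 45.8, 39.4 and 39.1 in D2.OR 3D. The lines overlapped in 2D, with a difference of 0.01 (SE 0.09, adjusted p = 0.96). They were apart in 3D, where Smurf2 was higher in D2.OR by 0.91 (SE 0.09, adjusted p = 5.43e-05). It rose by 0.59 in D2.OR (SE 0.09, adjusted p = 0.0215) and was lower by 0.31 on the log2 scale in 3D in D2A1, without passing (adjusted p = 0.0685).

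Whether the response to 3D differed between the lines was tested as the interaction of line and culture. None of the 46 pathway genes passed with edgeR, where 0.0238% of all genes did (0.0178% with a positive and 0.00594% with a negative difference), and 12 of the 46 had an unadjusted p under 0.05. The likelihood-ratio test of DESeq2 called 6 of them (Tgfb3, Inhba, Ltbp2, Ltbp3, Smurf2 and Id4) and 5.33% of all genes, and limma on log2(TPM + 1) or log2(TPM + 0.1) none. The smallest p was that of Smurf2, whose log2 change in D2.OR exceeded that in D2A1 by 0.90 (SE 0.13, adjusted p = 0.0683), followed by Tgfb3, at 1.4 (SE 0.27, adjusted p = 0.0892). Without batch 1, 14 of the pathway genes and 17.8% of all genes passed, without D2A1 2D replicate 1, 7 and 14.5%, and without D2A1 3D replicate 1, 3 and 2.94%. For the ID genes the interaction was -0.44 for Id1, 1.26 for Id2, -0.86 for Id3 and 1.61 for Id4 (adjusted p from 0.17 to 0.348). Those of Id2, Id3 and Id4 passed without replicate 1 (adjusted p = 0.0125, 0.00862 and 0.00636), those of Id3 and Id4 also without D2A1 2D replicate 1 (0.0133 and 0.0126), and that of Id4 with DESeq2 (0.0388).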

How the data were processed

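The 12 libraries of 2 mouse mammary tumor cell lines were made, 3 per line and culture. The authors quantified genes with RSEM (1.3.0, STAR 2.5.3, Trimmomatic 0.32 and FastQC 0.11.4 per the submitters' notes) and deposited expected counts and TPM per gene on GRCm38. The FPKM values that the authors deposited beside them were not used. The strand setting is not given in the sources used here. Expected counts were rounded to whole numbers, filtered with filterByExpr, scaled by TMM and fitted in edgeR 4.0.16 (R 4.3.3) with group and batch as terms over all 12 libraries, followed by quasi-likelihood tests with Benjamini-Hochberg adjustment over 16823 genes. The batch, a label of the samples that equals the replicate number, is the replicate block. After group means were removed, 18 pairs of same-numbered libraries correlated at 0.08 to 0.51 (median 0.27), and 36 other pairs at -0.43 to 0.3 (median -0.19). Removing the means of 3 libraries ties these values, since positive same-numbered pairs push the other pairs below 0. Library totals of 47589611 to 73325069 counts limit precision for rare transcripts, and a floor of 3 counts per library was used for bounds. Group levels are given as the authors' TPM with SD over 3 libraries. Alternatives were limma 3.58.1 on log2(TPM + 1) or log2(TPM + 0.1), likelihood-ratio tests in DESeq2 1.42.0, other scalings and filters, no block, the compared groups only, and each library or replicate left out. The scripts were tested on simulated data.

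The 50 genes and the lists of 93 other genes were chosen with earlier results of these data known. Every one of the 50 genes is accounted for. Values in every library and full statistics are given for genes called between the lines with an absolute log2 fold change of at least 2 and a group mean of at least 10 CPM, genes called between cultures or in the interaction, and the gene of each role with the smallest p between the lines in 2D. Of each other list the 2 genes with the smallest p between lines in 2D are named. Shared exon bases and promoters were read from GENCODE and RefSeq annotation of GRCm38.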

Additional observations from a re-analysis of the deposited data

Results flagged for a closer look

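For 4 of the tested pathway genes every batch moved one way from 2D to 3D in D2A1 and the opposite way in D2.OR. The share of all genes with this pattern was not counted, so the 4 cannot be set against a background. The difference between the lines was tested as the interaction of line and culture in edgeR. Smurf2 had log2 changes of -0.17, -0.41 and -0.33 in the batches of D2A1 and 0.78, 0.53 and 0.47 in those of D2.OR, with an interaction of 0.90 (SE 0.13, adjusted p = 0.0683). Tgfb3 had -0.40, -0.90 and -1.02 against 1.17, 0.33 and 0.33, with an interaction of 1.4 (SE 0.27, adjusted p = 0.0892). Tgfb1 moved in the other direction, with 0.04, 0.81 and 0.08 against -0.13, -0.55 and -0.38, and an interaction of -0.66 (SE 0.21, adjusted p = 0.178). Acvr2b had an interaction of -0.45 (SE 0.36, adjusted p = 0.523). None of the 4 differences passed the adjusted threshold. Groups held 3 libraries, so single libraries were not tested as outliers.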

How the results depend on the processing

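No called direction reversed under any alternative. The number of pathway genes called between the lines in 2D (32) ranged from 19 to 33 with libraries left out (24.9% to 53.8% of all genes). In 3D (32) it ranged from 25 to 34 (31% to 59.5% of all genes). Between cultures, the 7 genes called in D2A1 became 16 with DESeq2 (20.2% of all genes), 1 with the compared groups only (0.0981%) and 0 to 21 with libraries left out (0% to 36.3%). The 5 called in D2.OR became 9 with DESeq2 (6.86% of all genes), 9 with the compared groups only (5.16%) and 0 to 13 with libraries left out (0% to 8.38%). For the interaction, the count of 0 became 6 with DESeq2 (5.33%), 2 without the filter on low counts (Smurf2 and Tgfb3, adjusted p = 0.0371 and 0.0399) and 0 to 14 with libraries left out (0% to 17.8%). Without the replicate block the counts were 28 in 2D (43.9% of all genes), 29 in 3D (47.8%), 1 in D2A1 (0.309%), 2 in D2.OR (0.119%) and 0 for the interaction (0%). Among the line calls lost without the block were those of Tgfbr2, Eng, Id1 and Id4 in 2D. The interaction was not run with the compared groups only, since it uses all 4 groups. Scaling by library totals alone moved the share of called genes higher in D2.OR from 51% to 38.6% in 2D and from 51.5% to 44% in 3D, and with limma the share in 2D was 41% or 41.8%. Transcripts with few counts (Bmp2, Acvrl1, Tgfbi) were limited by depth.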
